A study of Mus musculus with 6 samples.

Results

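Interferon-stimulated genes are the antiviral and antimicrobial genes that cells switch on when an interferon binds its receptor. The 33 members were fixed by symbol: sensors, transcription factors and effectors that type I interferons induce, and GTPases that interferon-gamma induces. All 33 matched 1 row each among the 55802 rows of the deposited gene count table, and all 33 passed the filter on low counts. Liver RNA came from WT C57BL/6 mice in 2 groups of 3 libraries, one treated with oil (control) and one with CCl4, carbon tetrachloride, a solvent that hepatocytes turn into a reactive radical. All animals share the WT genotype and strain. The labels used here state no dose, duration, age or sex, and nothing in them ties each library to its own animal. The p-values therefore cover the library-to-library spread alone, which may be partly technical.

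Type I interferons signal through the receptor chains IFNAR1 and IFNAR2 and the kinases JAK1 and TYK2 to a complex that holds STAT2 and IRF9 and binds a DNA element called the interferon-stimulated response element (ISRE). Interferon-gamma signals through IFNGR1 and IFNGR2 to a factor that binds the gamma-activated sequence (GAS). In liver, hepatocytes, resident macrophages and endothelial cells all respond to interferons, and interferon-gamma comes mainly from T cells and natural killer cells.

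Library totals ran from 18929972 to 20042731 counts, and single members had from 25 to 9416 counts in a library. The hepatocyte markers Alb, Apoa1, Ttr, Serpina1c and Cyp2e1 summed to at least 85230 CPM (counts scaled to a fixed library total) in every library, as a liver sample should have. On the first principal component, with 77.2% of the variance, the groups separated, and on the second, with 8.68%, CCl4 replicate 3 stood apart from the other CCl4 libraries. In bulk tissue, a change in the number of cells of a type and a change in RNA per cell cannot be told apart.

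The sequences printed here show the response element as it stands in members that rose, fell or had no call, and were taken only from members that hold it. A window from 250 bases before to 50 bases after the transcription start (RefSeq, GRCm38.p6) was at hand for 27 of the 33 members. The core of the ISRE was searched on both strands as 2 GAAA half-sites with any 2 bases (NN) between them. It was in the window of 19 of the 27 members (70.4%), against 3.99% of 27025 genes with a window. Among members with a window it was found in 5 of 8 that were higher after CCl4, 4 of 5 that were lower, and 10 of 14 without a call. The 8 member windows without it include those of Oasl1, Oasl2 and Ifit2, which were higher, and Cmpk2, which was lower. The GAS, searched as TTCNNNGAA on both strands, was in 7 of 27 member windows (25.9%) and in 9.55% of all. The 2 motifs can overlap, as in Bst2. A match describes the letters only and says nothing of whether a factor is bound. The 150 bases before the start are given 5′ to 3′ on the gene's strand, with ISRE core matches in capitals, for 3 members that rose (Oas1a, Oas1g and Oas3), for 2 that fell (Ifit1 and Gbp7) and for Isg15, which had no call.
Oas1a, chr5:120907526-120907675, minus strand: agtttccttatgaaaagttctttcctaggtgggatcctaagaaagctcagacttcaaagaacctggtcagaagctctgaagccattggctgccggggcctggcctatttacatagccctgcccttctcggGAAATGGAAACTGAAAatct
Oas1g, chr5:120887614-120887763, minus strand: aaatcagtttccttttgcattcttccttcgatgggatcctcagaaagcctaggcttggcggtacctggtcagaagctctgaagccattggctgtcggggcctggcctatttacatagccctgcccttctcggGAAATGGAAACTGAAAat
Oas3, chr5:120777660-120777809, minus strand: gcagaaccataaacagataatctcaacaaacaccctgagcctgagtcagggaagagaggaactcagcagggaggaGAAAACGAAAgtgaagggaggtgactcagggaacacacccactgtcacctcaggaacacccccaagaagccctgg
Ifit1, chr19:34640739-34640888, plus strand: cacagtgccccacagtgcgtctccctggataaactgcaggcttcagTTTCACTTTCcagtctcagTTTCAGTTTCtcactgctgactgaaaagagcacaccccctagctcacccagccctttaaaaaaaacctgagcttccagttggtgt
Gbp7, chr3:142530186-142530335, plus strand: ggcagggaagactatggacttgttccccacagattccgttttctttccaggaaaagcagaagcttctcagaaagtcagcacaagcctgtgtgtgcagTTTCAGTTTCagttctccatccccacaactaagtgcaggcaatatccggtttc
Isg15, chr4:156200819-156200968, minus strand: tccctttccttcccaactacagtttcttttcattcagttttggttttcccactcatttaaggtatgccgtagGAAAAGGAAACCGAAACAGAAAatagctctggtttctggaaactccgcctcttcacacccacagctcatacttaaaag
In Oas1a and Oas1g the 2 matches overlap to form 1 run just before the start, and in Isg15 there are 3 overlapping matches. Ifit1 and Gbp7 carry the element in the opposite orientation.

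The comparison asked how these genes differ between livers of CCl4-treated and oil-treated mice. They did not move as a block. Of 33 members, 9 rose, 6 fell and 18 had no call at an adjusted p of 0.05. All 6 oligoadenylate synthetase genes rose, Oasl1 narrowly (adjusted p = 0.0471). No GTPase member rose in this fit, and Iigp1 and Gbp7 fell. Those that fell were 1 of 4 immunity-related, 1 of 3 guanylate-binding and 0 of 2 MX GTPases, against 20.1% of all genes tested. Gbp2 and Mx1 were called higher under some alternatives. The adjusted p-values here and below are edgeR's quasi-likelihood test with Benjamini-Hochberg adjustment over 15579 genes. Over all genes tested, 41.3% were called, 21.2% higher and 20.1% lower, so the 45.5% of members called (27.3% higher, 18.2% lower) lies near the background. The median log2 fold change, CCl4 over control, was -0.02 for the members and 0.00056 for all genes tested. In CPM, 18 of 33 members (54.5%) had groups that did not overlap, against 54% of all genes tested. Of these, 9 were higher, against 27.6% of all genes, and 9 were lower, against 26.4%. The split depended on the scaling: it was 10 higher and 4 lower with upper quartile scaling, and 11 higher and 2 lower with library size alone, which moved the median of all genes to 0.15. Without control replicate 2, or without CCl4 replicate 1, only 3 members were called lower.

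**Figure D1:**
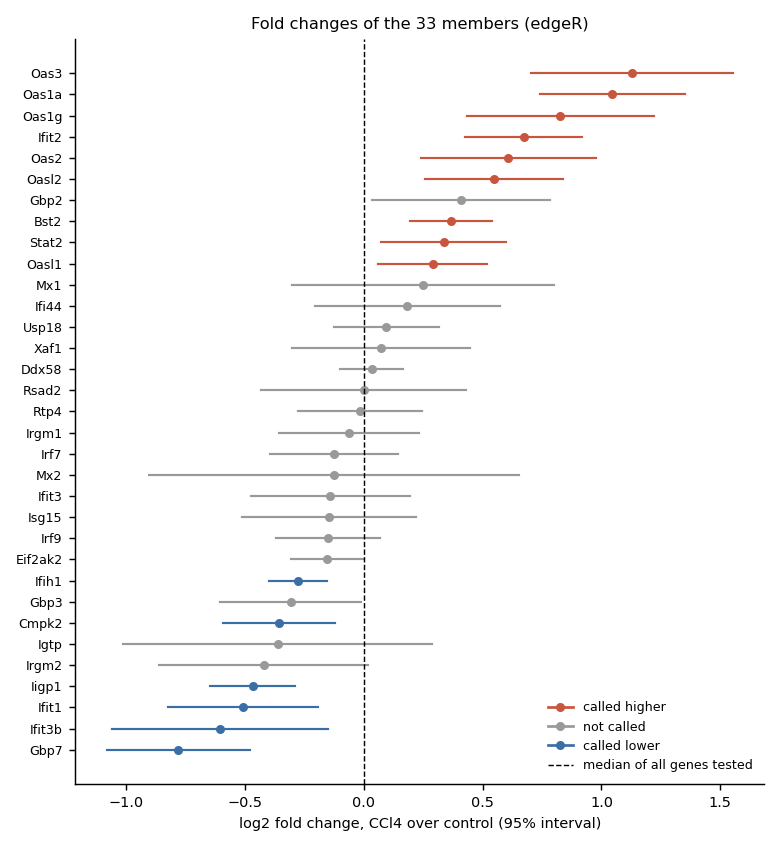
Log2 fold change (CCl4 over control) of each of the 33 members with its 95% interval, in order of size. The dashed line is the median of all genes tested. Oas3 (1.13) and Oas1a (1.05) lie at the top and Gbp7 (-0.78) at the bottom, with 18 uncalled members (grey) between -0.42 and 0.41.

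Oligoadenylate synthetases sense double-stranded RNA and make short oligoadenylates, a signal that leads to the decay of RNA in infected cells. In GENCODE M21 (GRCm38), Oas2, Oas3, Oas1g and Oas1a lie within bases 120730333 to 120907521 of chromosome 5, on the minus strand, and Oasl2 and Oasl1 within bases 114896936 to 114937915 of the same chromosome, on the plus strand. Oas1a (ENSMUSG00000052776), a catalytic family member, stood at 4.95, 4.86 and 4.08 CPM in control replicates 1, 2 and 3 and at 9.48, 10.8 and 8.45 CPM in the CCl4 replicates. Every CCl4 library lay above every control, and the log2 fold change was 1.05 (SE 0.14, adjusted p = 3.14e-04). Oas3 (ENSMUSG00000032661), the largest synthetase, with its 3 repeated units, went from 1.70, 1.89 and 1.32 CPM to 3.73, 3.51 and 3.54 CPM. Its log2 fold change was 1.13 (SE 0.19, adjusted p = 0.00126), with no overlap of the groups. These were the only called members whose fold change reached 1 on the log2 scale, and the only ones still called when a change of more than 1.5-fold was asked for.

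The other family members rose by less. Oas1g (ENSMUSG00000066861), a close copy of Oas1a, was at 2.29, 2.00 and 1.75 CPM in controls and at 3.53, 3.46 and 3.73 CPM after CCl4, a log2 fold change of 0.83 (SE 0.17, adjusted p = 0.00435). Oas2 (ENSMUSG00000032690) was at 7.19, 7.19 and 4.93 CPM and then at 11.2, 9.69 and 8.55 CPM (0.61, SE 0.16, adjusted p = 0.0149). In both genes all CCl4 libraries were above all controls, but Oas2 lost its call without CCl4 replicate 1 (adjusted p = 0.0608). Oasl2 (ENSMUSG00000029561), which has ubiquitin-like repeats, was at 8.89, 10.4 and 7.53 CPM and at 14.4, 12.9 and 11.99 CPM (0.55, SE 0.13, adjusted p = 0.00759). Oasl1 (ENSMUSG00000041827), known to restrain the translation of Irf7, was at 11.1, 13.3 and 11.9 CPM and at 13.4, 15.8 and 15.2 CPM (0.29, SE 0.10, adjusted p = 0.0471). The Oasl1 groups nearly met, and its call was lost in 4 of the 6 fits that left out a library, in DESeq2 (adjusted p = 0.168) and in limma-voom (0.0505). The directions of all 6 genes, and their calls, were the same under the 4 scalings tried.

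Oas1a and Oas1g share sequence, so their separate values are uncertain. Of the distinct 50-base stretches in the annotated transcripts, 57.6% of those of Oas1a also occur in Oas1g and 45.3% of those of Oas1g in Oas1a. Summed into 1 row, the pair went from 7.24, 6.86 and 5.83 CPM to 13.0, 14.2 and 12.2 CPM, a log2 fold change of 0.98 (SE 0.11, adjusted p = 1.74e-04). The sum does not depend on how reads were divided between the 2 genes. Of the further family members, listed outside the 33, Oas1c rose by 0.80 (adjusted p = 0.0319) and Oas1b was without a call (0.31, adjusted p = 0.216).

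The 4 IFIT members, which encode proteins that bind foreign RNA ends and lie within bases 34550694 to 34650009 of chromosome 19, went different ways. Ifit2 (ENSMUSG00000045932) rose from 8.41, 8.81 and 7.05 CPM to 13.5, 12.1 and 13.1 CPM, a log2 fold change of 0.67 (SE 0.11, adjusted p = 0.00107). Ifit1 (ENSMUSG00000034459), which recognises uncapped or incompletely capped RNA, fell from 11.02, 12.4 and 8.85 CPM to 7.21, 8.41 and 7.07 CPM (-0.51, SE 0.14, adjusted p = 0.0163). Counts of Ifit2 per count of Ifit1 were 0.763, 0.709 and 0.796 in control libraries but 1.87, 1.44 and 1.85 after CCl4, a ratio within each library that no scaling changes. This pair was picked after its values were seen, so the ratio is a description. Ifit1 was not called when scaled by library size alone (adjusted p = 0.069) or without replicate 1 of CCl4 or either of control replicates 1 and 2 (0.0565 to 0.0587).

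Ifit3b (ENSMUSG00000062488), a copy of Ifit3, was at 4.53, 3.62 and 3.13 CPM in controls and at 2.37, 2.92 and 2.11 CPM after CCl4, a log2 fold change of -0.61 (SE 0.20, adjusted p = 0.0376). Ifit3 itself was at 13.5, 14.1 and 9.75 CPM and at 12.7, 11.1 and 10.1 CPM, with overlapping groups and no call (-0.14, adjusted p = 0.482). The copies share 51.2% of the 50-base stretches of Ifit3, and their summed counts gave no call (-0.24, SE 0.14, adjusted p = 0.204). The lower value of Ifit3b alone is thus uncertain, and it lost its call in 4 of the 6 fits without a library, in DESeq2 (adjusted p = 0.103), with upper quartile scaling (0.0687) and with library size alone (0.0977).

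**Figure D2:**
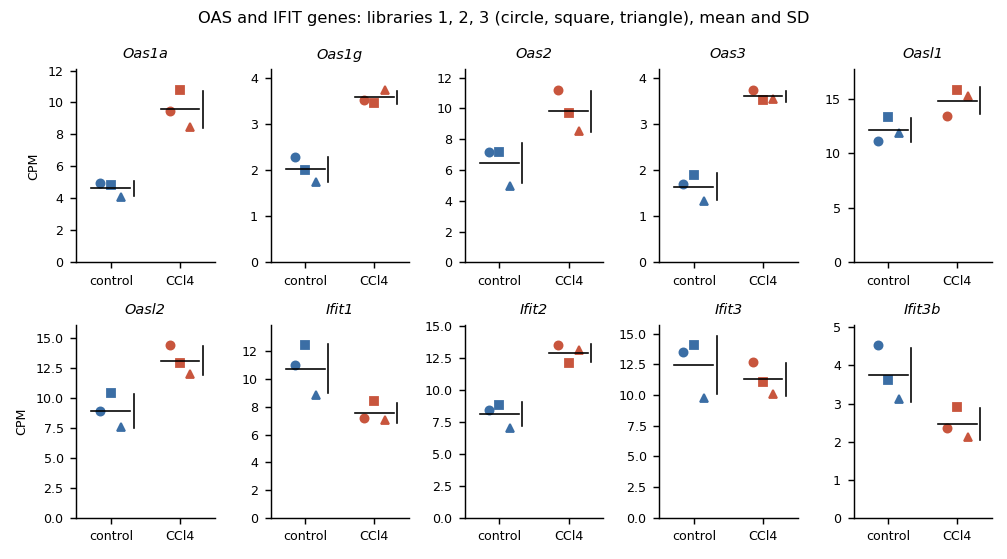
CPM of the 6 oligoadenylate synthetase and 4 IFIT members in each library (circle, square and triangle for replicates 1, 2 and 3), with a line at the mean and a bar of 1 SD, n = 3. All OAS panels and Ifit2 show the CCl4 libraries above the controls, Ifit1 and Ifit3b below them, and Ifit3 overlapping.

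Of the immunity-related GTPases, which attack the vacuoles of intracellular parasites and bacteria, 1 of 4 was called. Iigp1 (ENSMUSG00000054072), an effector of that family, was at 492, 509 and 442 CPM in controls and at 366, 361 and 316 CPM after CCl4, with no overlap, a log2 fold change of -0.47 (SE 0.08, adjusted p = 0.00134). Per kilobase of exon, Iigp1 stood at 82.6 CPM in controls, the second highest level among the members after Bst2 (140 CPM per kilobase). Irgm2, a regulator of the family, was at 70.2, 110.2 and 76.6 CPM in controls and at 66.2, 66.7 and 59.0 CPM after CCl4, without a call (-0.42, adjusted p = 0.112). Igtp, a further regulator, also called Irgm3, was at 34.5, 60.3 and 33.8 CPM and at 35.2, 33.8 and 30.9 CPM (-0.36, adjusted p = 0.317). In both genes control replicate 2 was far above every other library, and without it their log2 fold changes were -0.20 and -0.04. Irgm2 was called lower in DESeq2 (-0.43, adjusted p = 0.023) and, in edgeR, without control replicate 1 (-0.55, adjusted p = 0.0391). Irgm1, also a regulator, was at 73.2, 88.2 and 64.1 CPM and at 74.5, 77.6 and 63.8 CPM (-0.06, adjusted p = 0.721), and its sign turned with upper quartile scaling (0.02) and library size alone (0.08). Igtp and Irgm2 have overlapping exons on the same strand over 162 bases, and their summed counts gave no call (adjusted p = 0.173).

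Guanylate-binding proteins coat pathogen vacuoles and help to break them open. Gbp7 (ENSMUSG00000040253) was at 23.6, 31.7 and 21.9 CPM in controls and at 15.5, 15.04 and 14.4 CPM after CCl4. The groups were well apart, the log2 fold change was -0.78 (SE 0.13, adjusted p = 0.00175), the lowest of the 33 members, and the call held without control replicate 2 (-0.61). Gbp2 was at 8.15, 5.78 and 5.94 CPM and at 9.43, 9.74 and 7.22 CPM, and had no call (0.41, adjusted p = 0.0775). Its groups overlapped through control replicate 1, and it was called higher without that library (0.58, adjusted p = 0.0298), without CCl4 replicate 3, with upper quartile scaling, with library size alone, and with no filter on low counts. Gbp3 was at 11.9, 14.5 and 10.8 CPM and at 10.7, 10.6 and 8.75 CPM (-0.31, adjusted p = 0.0905), and was called lower when the low-count filter was dropped (adjusted p = 0.0418).

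Of the 7 GBP genes listed outside the 33, 4 fell and 1 rose. Gbp10 was at 14.6, 22.6 and 12.6 CPM in controls and at 2.27, 2.42 and 1.77 CPM after CCl4, a log2 fold change of -2.94 (SE 0.26, adjusted p = 1.41e-04). That is the lowest log2 fold change in any of the interferon lists. Gbp6 (-1.20), Gbp11 (-0.97) and Gbp4 (-0.83) also fell, Gbp8 rose (0.43, adjusted p = 0.0294), and Gbp5 (-0.06) and Gbp9 (0.17) had no call. Tgtp1, a related GTPase, fell by 1.15 on the log2 scale. Its copy Tgtp2 had no call (-0.09), and 79.4% of the 50-base stretches of Tgtp1 occur in Tgtp2. Likewise 73.3% of those of Gbp10 occur in Gbp6, so the separate values of these pairs are uncertain. Over the 17 immunity-related and guanylate-binding GTPases of both lists, which leave out Mx1 and Mx2, 7 fell, 1 rose and 9 had no call. The shares of all genes tested were 20.1% lower and 21.2% higher. In 13 of the 17 control replicate 2 was the highest control, against 34.7% of all genes. Pairs that share sequence are counted here as separate genes.

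**Figure D3:**
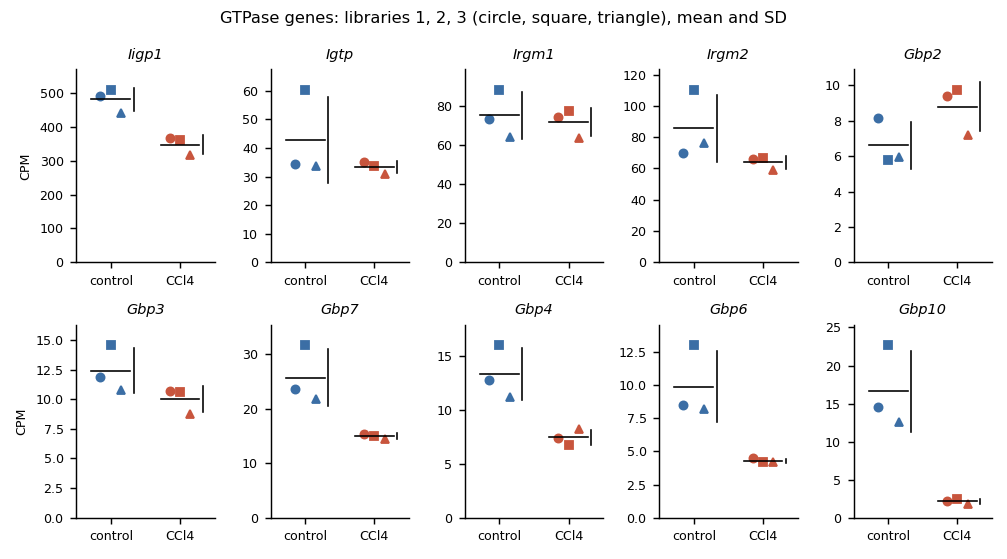
CPM of the 7 immunity-related and guanylate-binding GTPase members and of Gbp4, Gbp6 and Gbp10 in each library (circle, square and triangle for replicates 1, 2 and 3), with a line at the mean and a bar of 1 SD, n = 3. Control replicate 2 (blue square) is the highest control in all panels but Gbp2. Iigp1, Gbp7, Gbp4, Gbp6 and Gbp10 have every CCl4 library below every control. So do Irgm2 and, narrowly, Gbp3, which had no call.

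Among the transcription factors of the pathway, Stat2 (ENSMUSG00000040033) was at 81.7, 89.9 and 66.7 CPM in controls and at 102, 108 and 90.7 CPM after CCl4. The lowest CCl4 library lay just above the highest control, and the call was narrow (log2 fold change 0.34, SE 0.11, adjusted p = 0.0482). It was lost in 4 of the 6 fits that left out a library, those without control replicate 1 or 3 and those without replicate 1 or 2 of CCl4 (adjusted p from 0.088 to 0.133), and with no filter on low counts (0.0743). Irf9, the DNA-binding partner of STAT2, was at 43.2, 44.7 and 40.3 CPM and at 40.9, 42.2 and 32.5 CPM (-0.15, adjusted p = 0.249). Irf7, which amplifies type I interferon production, was at 34.2, 35.5 and 34.1 CPM and at 35.9, 33.9 and 25.4 CPM (-0.13, adjusted p = 0.43). For both, CCl4 replicate 3 alone was low and the other CCl4 libraries lay among the controls or close to them.

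Of the RNA sensors, Ifih1 (ENSMUSG00000026896), which encodes MDA5, a detector of long double-stranded RNA, was at 48.5, 51.4 and 47.8 CPM in controls and at 40.4, 40.8 and 40.8 CPM after CCl4. This small fall had little spread (log2 fold change -0.28, SE 0.05, adjusted p = 0.00299). Scaled by library size alone, it was not called (adjusted p = 0.105). Ddx58, which encodes RIG-I, a sensor of RNA with a 5′ triphosphate, stayed between 36.1 and 39.3 CPM in all libraries (0.03, adjusted p = 0.688), and was called higher with library size alone (0.18, adjusted p = 0.0483). Eif2ak2, the RNA-activated kinase PKR that halts translation, was at 29.3, 32.8 and 29.3 CPM and at 27.6, 27.8 and 26.8 CPM, apart by group but without a call (-0.15, adjusted p = 0.0954).

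Bst2 (ENSMUSG00000046718) encodes tetherin, which holds budding virus at the cell surface, and had the highest level per kilobase of exon of the members in both groups. It was at 129, 132 and 118 CPM in controls and at 172, 170.1 and 146 CPM after CCl4, and rose without overlap (log2 fold change 0.37, SE 0.08, adjusted p = 0.00418). Cmpk2 (ENSMUSG00000020638), a mitochondrial nucleotide kinase, was at 10.8, 12.2 and 9.97 CPM and at 8.32, 8.56 and 8.84 CPM (-0.36, SE 0.11, adjusted p = 0.0222). It was not called without either of control replicates 1 and 2 or of CCl4 replicates 1 and 2, with other scalings (upper quartile and library size alone) and in DESeq2 (adjusted p = 0.0806). Rsad2, the neighbour of Cmpk2, encodes viperin, which makes a chain-terminating nucleotide, and was at 15.7, 18.7 and 11.7 CPM and at 16.6, 16.8 and 12.6 CPM, with no call (adjusted p = 0.997). The difference between these neighbours was not tested.

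The remaining effectors had no call, and their groups overlapped. Isg15, the ubiquitin-like modifier, was at 9.85, 11.02 and 8.32 CPM in controls and at 10.6, 8.71 and 7.03 CPM after CCl4 (-0.15, SE 0.16, adjusted p = 0.503), with a 95% interval of -0.51 to 0.22. Usp18, the protease that removes ISG15 and dampens receptor signalling, was at 13.4, 14.1 and 14.6 CPM and at 14.3, 13.7 and 16.9 CPM (0.09, adjusted p = 0.48). For both genes CCl4 replicate 3 lay outside the range of the controls, below it for Isg15 and above it for Usp18. Mx1, of the dynamin-like GTPase family, was at 3.51, 4.16 and 3.50 CPM and at 5.49, 5.04 and 2.75 CPM (0.25, adjusted p = 0.45). Without CCl4 replicate 3, which was below every control, Mx1 was called higher (0.50, adjusted p = 0.0259). Its relative Mx2 was at 12.2, 11.1 and 7.21 CPM and at 12.7, 9.45 and 5.95 CPM, and its log2 fold change had the widest 95% interval of the members, from -0.91 to 0.65. Rtp4 (-0.02), Xaf1 (0.07) and Ifi44 (0.18) were between 5.36 and 18.2 CPM in all libraries. Of the 18 uncalled members, 3 had groups that did not overlap (Eif2ak2, Irgm2 and Gbp3), and 3 had an unadjusted p under 0.05 (Eif2ak2, Gbp2 and Gbp3).

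Within each group the members moved together from library to library. Control replicate 3 was the lowest control for 28 of 33 members, where it was the lowest for 34.8% of all genes tested. Control replicate 2 was the highest control for 22 of 33, against 34.7% of all genes. Among CCl4 libraries, replicate 3 was the lowest for 25 of 33, against 38.2% of all genes. The median log2 ratio of a member to the mean of the other libraries of its group was -0.27 in control replicate 3, 0.19 in control replicate 2 and -0.21 in CCl4 replicate 3, against -0.00145, -0.00486 and -0.000863 for all genes. The fold changes of many members are smaller than this spread. With control replicate 2 and CCl4 replicate 3 both left out, a choice made after seeing this pattern, 11 members were higher and 3 lower. What set these libraries apart was not tested.

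**Figure D4:**
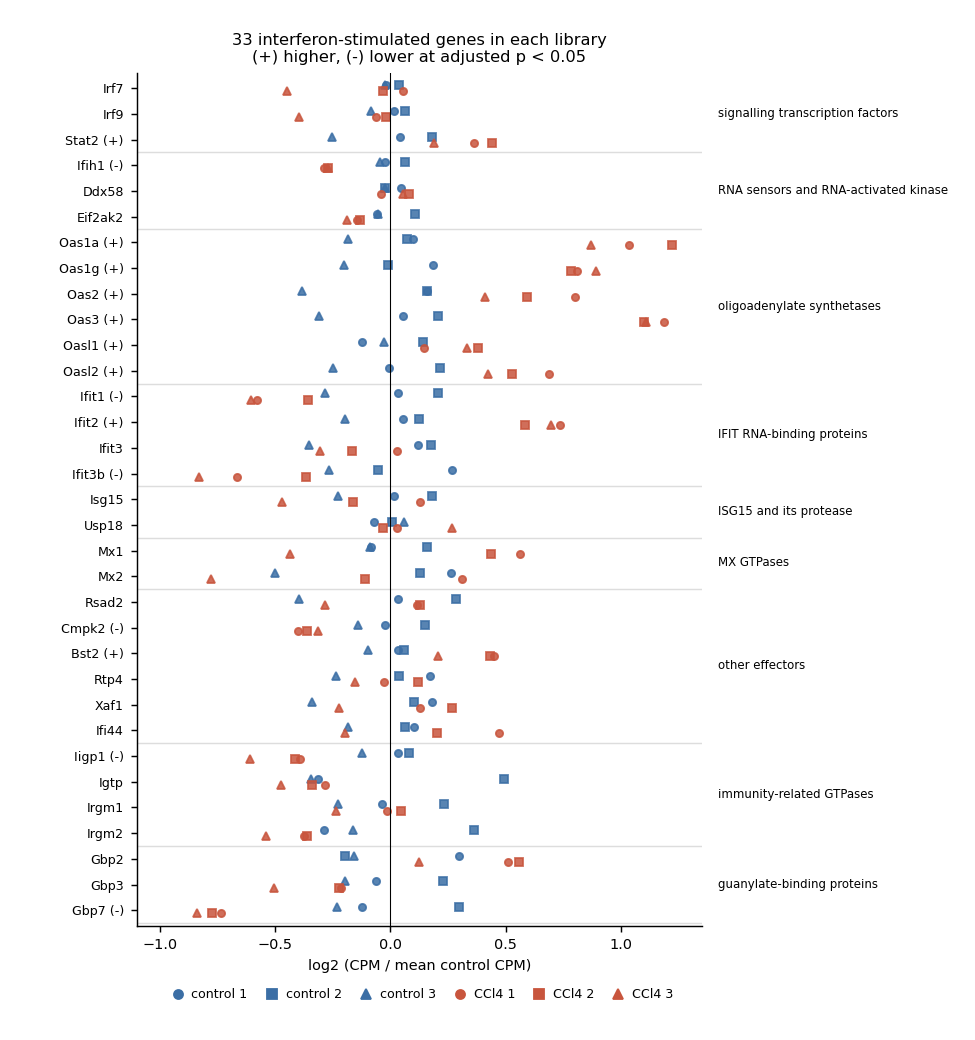
Each of the 33 members, grouped by role, in each library as log2 of its CPM over the mean control CPM. Blue is control and red CCl4, and circle, square and triangle are replicates 1, 2 and 3. The blue triangles (control replicate 3) lie left of the other controls for 28 of 33 genes, and the red symbols of all 6 OAS genes lie right of the controls.

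The interferons themselves were close to undetected. Of 21 ligand genes, 18 had no count in any library, which allows up to 3 counts in a library (counting error only). On the raw total of the shallowest library that is 0.158 CPM, without the scaling factors used for the other CPM values. Ifnb1 had 1 count in control replicate 3 and 0 elsewhere. Ifng had 1 count in each of 2 controls and 2 CCl4 libraries, and Ifnk had 0 to 4 counts per library. At this depth a difference in ligand mRNA was not detectable.

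Of 21 tested genes of receptors and signalling, 6 rose and 3 fell (7 and 0 with library size alone, 6 and 1 with upper quartile scaling). Their median was -0.02. The 28.6% higher and 14.3% lower lie near the 21.2% and 20.1% of all genes tested. Both chains of the interferon-gamma receptor rose: Ifngr1 went from 25.6, 25.8 and 23.8 CPM to 36.6, 36.1 and 41.9 CPM, a log2 fold change of 0.61 (SE 0.08, adjusted p = 2.37e-04), and Ifngr2 rose by 0.46 (adjusted p = 7.18e-04). Ifnlr1, the specific chain of the interferon-lambda receptor, was at 0.106, 0.324 and 0.159 CPM and at 1.21, 1.29 and 1.03 CPM (2.55, SE 0.39, adjusted p = 7.53e-04), and its partner chain Il10rb, shared with the interleukin-10 receptor, rose by 1.17 (adjusted p = 3.33e-05). Of the type I receptor, Ifnar1 fell by 0.14 on the log2 scale (adjusted p = 0.049), a call lost in each of the 6 fits that left out 1 library and of the opposite sign (0.0023) with library size alone, while Ifnar2 had no call (-0.06). Irf8, a myeloid transcription factor, and Ptpn6, a phosphatase of blood cells, rose by 1.23 and 0.54. Irf3, which is activated downstream of RNA and DNA sensors, and the phosphatase gene Ptpn11 fell by 0.29 and 0.24, and both calls were lost with library size alone.

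Nucleic acid sensors included 9 that rose and 1 that fell among 19 tested (median 0.19). Those are 47.4% higher and 5.26% lower, against 21.2% and 20.1% of all genes tested. The endosomal receptors Tlr7 (1.34), Tlr8 (2.08) and Tlr9 (1.65), the DNA sensors Aim2 (0.92) and Ifi204 (0.71), and Tmem173, which encodes STING (1.19), rose. Mavs, the adaptor of RIG-I and MDA5, went from 81.9, 86.2 and 82.8 CPM to 61.2, 61.8 and 67.8 CPM, a log2 fold change of -0.39 (SE 0.06, adjusted p = 6.06e-04). That call held under all 4 scalings.

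Among 39 further interferon-induced genes, 11 rose, 7 fell and 21 had no call (17 and 6 with library size alone), with a median of 0.07. The 28.2% higher and 17.9% lower lie near the 21.2% and 20.1% of all genes tested. Slfn2, a growth regulator of immune cells, rose by 1.04 (adjusted p = 1.72e-04), and Ifi27l2a (0.81), Epsti1 (0.78) and Ifitm2 (0.45) also rose. Apart from the GTPases, Helz2 (-0.39) and Nmi (-0.28) fell, Nmi losing its call with upper quartile scaling and library size alone. Ifitm3, an entry inhibitor of enveloped viruses, had no call (-0.02). Of 15 genes of antigen processing and chemokines that interferon-gamma induces, 3 rose and 2 fell (median -0.16). Those are 20% and 13.3%, no more than the 21.2% and 20.1% of all genes tested. Cxcl9, a T cell attractant, went from 13.0, 9.46 and 14.3 CPM to 6.20, 7.07 and 7.12 CPM (-0.85, SE 0.15, adjusted p = 0.00194). Ciita, the master activator of MHC class II genes, rose by 1.15 (adjusted p = 0.00143). Tapbp (0.17) and Wars (0.39) also rose, and Psme1 was lower (-0.18, adjusted p = 0.0425). The immunoproteasome genes Psmb8 (-0.16), Psmb9 (-0.02) and Psmb10 (-0.18, adjusted p = 0.0534) had no call. Of these 15 genes, 12 had a log2 fold change below 0, where the median of all genes tested was 0.00056. Several of the 12, such as Psmb9, were close to 0. Library size alone moved the median of all genes to 0.15, so such signs depend on the scaling.

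**Figure D5:**
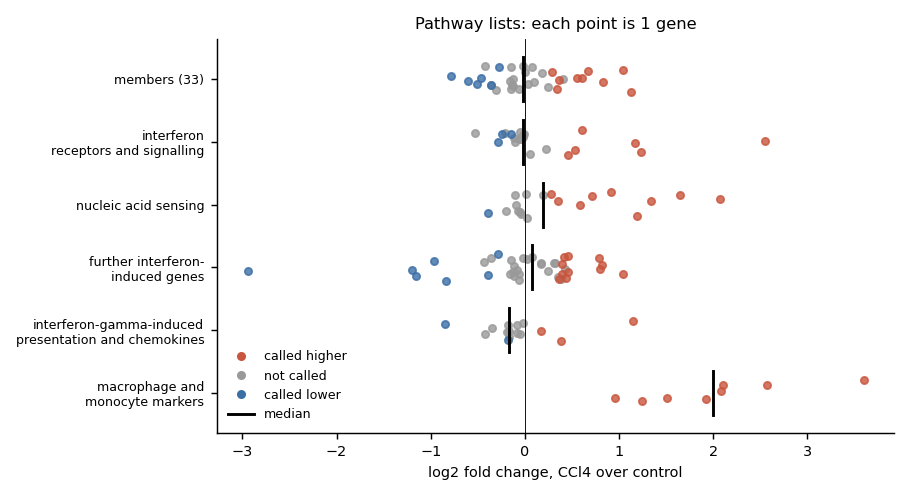
Log2 fold change (CCl4 over control) of each tested gene in the 33 members, the pathway lists and the macrophage and monocyte markers, with a bar at each median. The members centre near 0 (-0.02), with calls on both sides, and the macrophage markers centre at 2.00.

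Markers of several cell types moved with the group. For scale, 21.2% of all genes tested rose and 20.1% fell. All 8 macrophage and monocyte markers rose, and their summed level went from 138 to 181 CPM in controls to 483 to 561 CPM after CCl4. All 5 tested neutrophil markers rose. The 6 listed ones summed to 6.68 to 10.01 CPM in controls and to 27.9 to 31.6 CPM after CCl4. Ly6g, too low to test, had no count in the controls and 4, 1 and 0 counts in CCl4 replicates 1, 2 and 3. Of 5 listed markers of plasmacytoid dendritic cells, a source of type I interferon, Siglech rose by 1.62 from under 1 CPM and Tcf4 by 0.44. Ccr9 had no call (0.20, adjusted p = 0.671), and Klk1 and Cox6a2 were too low to test. Of 8 tested T cell and natural killer cell markers, 0 were called. The 10 listed ones summed to 9.67 to 13.3 CPM in controls and to 7.37 to 11.7 CPM after CCl4. Of 4 B cell markers Cd79a was called (0.59, adjusted p = 0.0366). Of 5 Kupffer cell markers Cd5l (1.23) and Vsig4 (0.91) rose and Timd4 fell by 0.97 on the log2 scale, and 5 of 6 stellate cell markers rose. Of 6 endothelial markers 1 was called, Kdr, which was lower (-0.18, adjusted p = 0.0397). Summed, the endothelial markers were at 213.7 to 221.8 CPM in controls and at 207.5 to 226.5 CPM after CCl4. Of 5 hepatocyte markers, Cyp2e1 (-1.85) and Serpina1c (-0.48) fell and Ttr rose (0.24). The part of these cells in the values of the members was not tested.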

How the data were processed

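The submitters deposited whole-number counts per gene for 6 liver libraries. Per the labels' protocols, libraries were made from 1.3 µg of total RNA with a SMARTER kit. Per the series' design text, reads were cleaned and aligned with HISAT2, and the submitters' processing notes name featureCounts. For the counting, the tool versions, build, annotation, strand setting and handling of multi-mapping reads were not given in the sources used here. Overlapping or near-identical genes are therefore uncertain. Of 55359 Ensembl identifiers, 52083 matched a GENCODE M21 symbol, and the 443 other rows (0.543 to 0.679% of counts) were kept in the fit.

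The test was that of edgeR 4.0.16 under R 4.3.3 (filterByExpr, TMM scaling, robust quasi-likelihood fit, group as the only term, Benjamini-Hochberg adjustment over 15579 genes, threshold 0.05). Standard errors are the log2 fold change over the square root of F. Per-kilobase levels use M21 exon unions. In simulated counts for this comparison (15052 genes), the test called 82.1% of 95 genes given a log2 change of 1. The simulation changed far fewer genes than were called in the data and held no smaller change. It therefore does not give the power for the uncalled members. Alternatives included DESeq2 1.42.0 and limma-voom (limma 3.58.1). No library pair within a group agreed within sampling noise (5.71 to 25.9 chi-square units per gene); each was kept as its own sample. The naming rule took all 33 members, the listed pathway genes that passed the test, any marker and any ligand with a count. Oas1b, Gbp5, Gbp9, Tgtp2, Ifnar2, Ifitm3, Psmb8, Psmb9 and Psmb10, without a call, fall outside it and were chosen after their values were seen. Leaving out control replicate 2 and CCl4 replicate 3 together, and summing pairs of like genes, were also chosen after seeing the data. The members and lists were chosen with earlier results of these data known. Of 118 listed pathway symbols, 117 had a row.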

Additional observations from a re-analysis of the deposited data

How the results depend on the processing

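Scaling, filter, tool and minimum fold were varied, a replicate block was added, and libraries were left out in turn. Of the 15 called members, 8 kept their call under every alternative but the minimum fold: Oas1a, Oas1g, Oas3, Oasl2, Ifit2, Bst2, Iigp1 and Gbp7. With a minimum fold change of 1.5, 2 members were higher and 0 lower (all genes called higher in CCl4 1309, all genes called lower in CCl4 380, further interferon-induced genes 1 and 2, receptors and signalling 3 and 0). Library size alone gave 2 members lower (all genes 4824 higher and 1676 lower, further genes 17 higher, receptors and signalling 0 lower), and upper quartile scaling gave 1 lower gene of receptors and signalling and 4103 higher and 2177 lower genes overall. Leaving out 1 library gave 7 to 10 members higher and 3 to 6 lower. Leaving out control 2 and CCl4 3 together gave 3 lower. The cause of these shifts was not tested. Over all genes tested, the deviations of same-numbered libraries of the groups correlated only weakly (0.0483, 0.00396 and 0.0635). Each library correlated best with its own number except control 2, which correlated best with CCl4 1 (0.0365). Whether same-numbered libraries form pairs was not tested. Among the members, replicate 3 was the lowest library of its group for 28 of 33 in the controls and for 25 of 33 after CCl4. The replicate block gave 10 members higher and 7 lower, with Gbp2 and Gbp3 added (adjusted p 0.0421 and 0.0445) and Stat2 at an adjusted p of 0.00215, and 3298 and 3118 over all genes.

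Signs turned only for values with no call, except Ifnar1 (0.0023 with library size alone). With library size alone they were Irf7 0.018, Ifit3 0.0031, Mx2 0.014, Rsad2 0.142, Rtp4 0.129 and Irgm1 0.0813. With upper quartile scaling they were Rsad2 0.0836, Rtp4 0.0691 and Irgm1 0.022. Rsad2 was also 0.0123 with the stricter filter, 0.01375 in limma-voom and 0.0092 with the replicate block. With control 2 and CCl4 3 both left out, they were Irf7 0.0299, Ifit3 0.0294, Isg15 0.088, Mx2 0.182, Rsad2 0.286, Rtp4 0.0653, Igtp 0.0153 and Irgm1 0.146. Over the fits without 1 library, ranges that crossed 0 were -0.22 to 0.0114 for Irf7, -0.00095 to 0.15 for Usp18, -0.40 to 0.12 for Mx2, -0.17 to 0.16 for Rsad2, -0.127 to 0.07225 for Rtp4, -0.0787 to 0.198 for Xaf1 and -0.171 to 0.0622 for Irgm1. Depth limits what can be said of the ligands, of which 18 of 21 had no count.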
